A study of Rattus norvegicus with 9 samples.

Results

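A group of 47 genes stood higher than control both in LPS-treated rat mesangial cells and in cells given a leech extract. Their mean levels in those 2 groups differed by less than a set limit. The genes were selected on their expression values in these same libraries. A gene was kept when its group mean of log2(TPM + 1) was at least 1 above control in the LPS group and in the extract group. All 3 control values also had to lie below every LPS and every extract value, and the extract and LPS means had to be less than 1 apart. TPM is the share of a transcript among all transcripts of a library, scaled to a fixed total of 1000000. The rule was applied to the 12192 genes that averaged 1 TPM or more, out of 30560 in the table. Because the values chose the genes, the differences from control below are a description and carry no test, and the comparison of extract with LPS is bounded by the rule.

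The cells were HBZY-1, a permanent line derived from the mesangium of the rat glomerulus. The 9 RNA-seq libraries comprise 3 labelled control, 3 labelled LPS-induced and 3 labelled as given the high dose of a water extract from lyophilized Poecilobdella manillensis, a blood-feeding leech. No dose or duration is labelled, nor what the control cells received, nor whether the extract cells had also been exposed to LPS. The replicates are described as biological with no mention of separate culture days, so their spread may be partly technical. The files identify genes by Ensembl number alone, and the reference gene table used here lists no Ensembl numbers, so that no match was possible. Gene names, functions, promoters and cell type markers could therefore not be attached to the 47 genes, and the labelled cell type was not checked. Only 2 of the genes are given here by identifier: the one with the highest rise and the most abundant one.

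Mesangial cells support the capillaries of the glomerulus, contract, and lay down and clear matrix. Lipopolysaccharide from the bacterial outer membrane is sensed through the TLR4 receptor complex, which activates NF-kB and MAP kinase signalling. In mesangial cells and many other cell types this is known to induce cytokines, chemokines, adhesion molecules and complement components. Blood-feeding leeches are known for salivary anticoagulants such as the thrombin inhibitor hirudin.

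ENSRNOG00000000239 had the group's highest rise on the log2(TPM + 1) scale, taking for each gene the smaller of its 2 differences from control. Its TPM was 24.5, 25.6 and 23.6 in the control libraries, 538.9, 521.4 and 535.2 with LPS, and 368.3, 343.2 and 321.1 with the extract. The 3 groups were fully separated, with the extract libraries between the other groups and nearer to LPS on the log scale. The group means were 24.6 ± 0.99 TPM for control, 531.9 ± 9.2 for LPS and 344.2 ± 23.6 for the extract (SD, n = 3). In linear TPM this was a 21.6-fold and a 14.0-fold higher level than in control. On the log2(TPM + 1) scale the differences were 4.38 for LPS and 3.75 for the extract.

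ENSRNOG00000005695 was the most abundant gene of the group. Its TPM was 7484, 6766 and 7221 in control, 24378, 24339 and 23424 in LPS, and 17002, 18025 and 15537 in extract libraries. Again no value of one group overlapped with another, and the extract libraries lay between control and LPS. Relative to its control mean of 7157 ± 363 TPM, the LPS mean of 24047 ± 539.9 TPM was 3.36-fold higher and the extract mean of 16854 ± 1250.4 TPM was 2.36-fold higher (SD, n = 3). Of its rise with LPS in TPM, the rise in extract cells made up 57.4%, against 63.0% for ENSRNOG00000000239.

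This single gene carried most of the RNA of the group. Together the 47 genes took 0.82% ± 0.038 of all TPM with control, 2.83% ± 0.056 with LPS and 2.03% ± 0.14 with the extract (SD, n = 3). Without ENSRNOG00000005695 the other 46 took 0.104% ± 0.002, 0.423% ± 0.012 and 0.345% ± 0.025. The sum over all 47 was thus 3.45-fold its control level in LPS and 2.48-fold in extract cells, and that over the other 46 was 4.06-fold and 3.32-fold. In both sums every extract library lay above every control library and below every LPS library. TPM shares of a library add up to a fixed total, so a larger share of these genes lowers the share of all others. These are bulk RNA values, in which a change in every cell and a change in the share of cells that express a gene cannot be told apart.

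**Figure D1:**
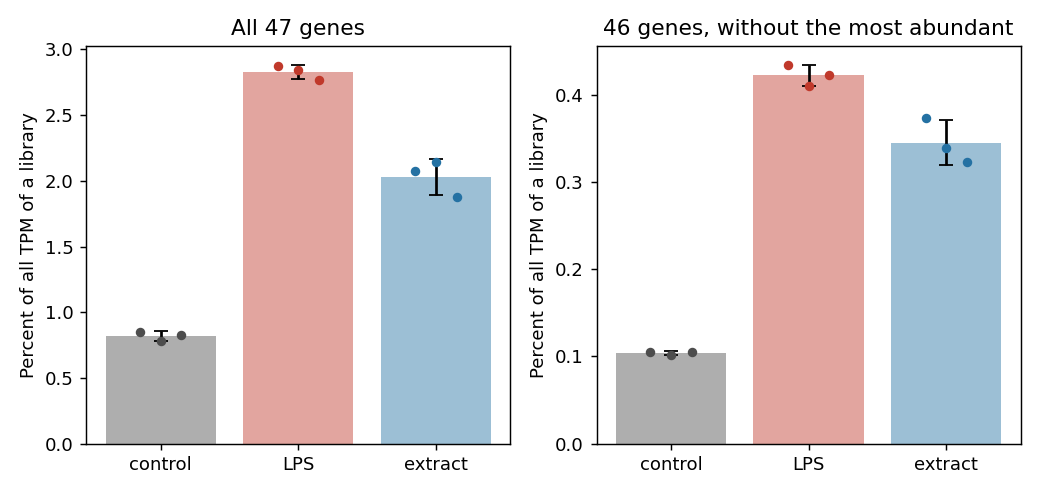
Summed TPM of the 47 genes (left) and of the 46 genes without ENSRNOG00000005695 (right), as percent of all TPM of a library (vertical axis, from 0) in the 3 groups. Bars are means, error bars the SD over 3 libraries and points the libraries. Extract libraries sit between control and LPS libraries in both panels.

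The 47 genes covered a wide range of levels. In control cells their median level was 6.09 TPM, against 20.0 TPM over all tested genes. It was 25.6 TPM in LPS cells, where the tested genes had a median of 18.8 TPM, and 22.0 TPM in extract cells, where the tested genes had 19.4 TPM. Thus the group lay below the typical tested gene in control and above it in the other 2 groups. A rise from control was a condition of the rule. Control means below 1 TPM were found for 15 of the 47 (31.9%), against 1.5% of tested genes. A gene near 0 in control passes the mean of 1 TPM only through the groups where it is higher, so this share follows in part from the filter.

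These 15 genes stayed low where they were expressed. Their control means ran from 0 to 0.533 TPM, their LPS means from 1.71 to 10.6 TPM and their extract means from 1.34 to 6.75 TPM. Of the 15, 2 had a listed value of 0 in each control library. The higher of these was listed at 11.9, 7.99 and 12.1 TPM in LPS and at 6.19, 8.41 and 5.66 TPM in extract libraries. Its LPS and extract values overlapped, and its extract mean was the lower of the 2. No fold change is given for these 2, since the control level is 0 and the depth of the libraries is unknown. The difference on the log2(TPM + 1) scale understates the rise of all 15. By ratio of TPM, some of them exceeded ENSRNOG00000000239, such as a gene with means of 0.053 TPM in control and 5.05 TPM in LPS. With control levels so near 0, rounded to 2 decimals and at unknown depth, such ratios are unreliable. No ranking is read from them.

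The other 32 genes had at least 1.86 TPM in control and allow a ratio of TPM levels. LPS over control ranged from 2.11 to 21.6 with a median of 3.72. Extract over control ranged from 2.17 to 14.0 with a median of 3.43. Among them 9 exceeded 100 TPM in LPS cells, and 7 exceeded it in extract cells. The second most abundant gene averaged 445.8 ± 17.7 TPM under control, 1140.3 ± 81.4 under LPS and 1060.0 ± 146.8 under the extract (SD, n = 3). Its extract values overlapped with its LPS values, unlike those of the most abundant gene.

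**Figure D2:**
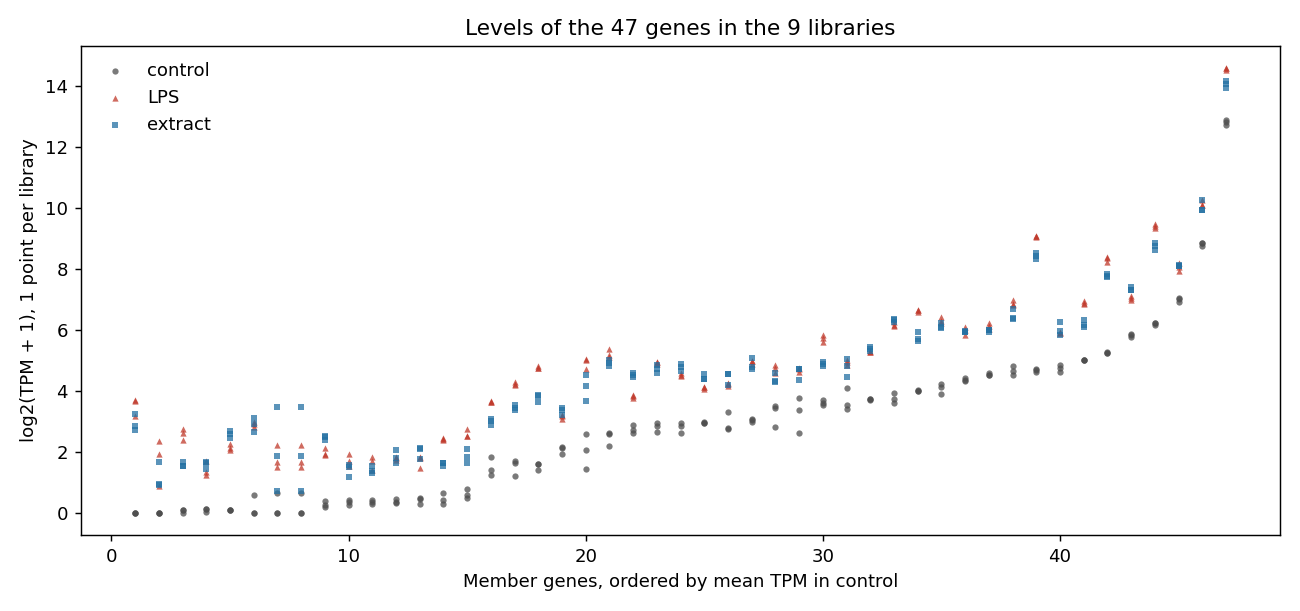
Levels of the 47 genes, ordered along the horizontal axis by their control mean, as log2(TPM + 1) with 1 point per library (grey control, red LPS, blue extract). Control points lie below the others for every gene, as the rule demands, and the most abundant gene stands far right at 7157 TPM in control.

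For each gene the differences from control in the 2 treated groups were less than 1 apart, as the rule's window for extract minus LPS demands. On the log2(TPM + 1) scale the LPS differences ran from 1.07 to 4.38 with a median of 1.72, and the extract differences from 1.04 to 3.75 with a median of 1.57. Over all tested genes the medians were -0.08 and -0.04. LPS differences of at least 2 were found for 18 genes and extract differences of at least 2 for 12. Both differences use the same control libraries, whose chance values enter both. The gap between the highest control value and the lowest LPS or extract value had a median of 1.11 and reached at least 1 for 32 genes. It was below 0.5 for 3 genes, and 2 of these had identical values in every library.

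The moderated test of limma, run over all 12192 genes, called 45 of the 47 higher in LPS versus control (adjusted p below 0.05), where 9.79% of all tested genes were called higher. All 47 were called higher in extract versus control, where 22.3% of tested genes were. The rule fixed the direction of both differences and their least size, so nothing is read from these counts. The 2 genes without a call in LPS versus control were the pair with identical values. Their listed TPM was 0, 0 and 0.58 for control, 1.82, 3.73 and 2.17 for LPS, and 0.66, 10.2 and 2.69 for the extract. Extract replicate 2 was far above its fellow libraries and extract replicate 1 barely above the control maximum, so these 2 entries rest on very uneven values. Counting the pair once leaves 46 distinct profiles.

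The rule kept part of a longer list. At least 1 above control were 202 genes in LPS and 199 in extract cells, and 83 in both, which is 41.1% and 41.7% of these lists. The 47 genes make up 23.3% of the first list and 23.6% of the second. In 14 of the 83 a control value overlapped with an LPS or extract value. A further 22 were separated from control but had extract and LPS means at least 1 apart, 20 with the lower mean in extract and 2 with the lower mean in LPS cells. Control values lay below all LPS and all extract values in 4.71% of tested genes.

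The limits cut through a continuous range. Just inside the limit of 1, the smaller differences from control were 1.04, 1.07 and 1.08. The nearest genes outside had 0.96, 0.95 and 0.93. At the other limit, extract minus LPS was -0.999 and -0.996 for the 2 genes nearest to it inside and -1.06 and -1.07 for the nearest outside. With a pseudocount of 5 in place of 1, the rule found 30 genes, of which 27 were among the 47.

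**Figure D3:**
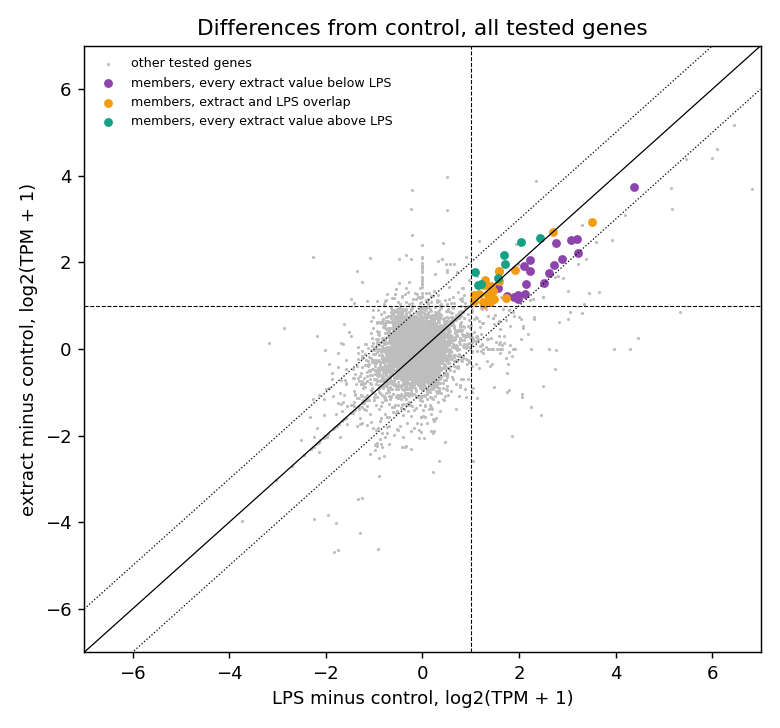
Difference from control in LPS (horizontal) and extract cells (vertical), as log2(TPM + 1), for the 12192 tested genes. Coloured points are the 47 genes, by whether every extract value lay below (19 genes), among (20) or above (8) the LPS values. Dashed lines mark the limit of 1 and dotted lines the window around equal values (solid).

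Within the window, the genes differed in how the extract group stood to LPS. Every extract value lay below every LPS value in 19 of the 47 genes (40.4%), where 27.8% of tested genes showed this. The opposite order was found in 8 genes (17.0%), where 37.3% of tested genes showed it, and in 20 genes the values overlapped. Limma called 18 of the 47 lower in extract versus LPS, with a background of 25.0%, and 6 higher, with a background of 34.4%. Of the 18, 1 had overlapping values. It was the higher of the 2 genes listed at 0 in control, with extract minus LPS of -0.58. The rule used this difference too, and the list was cut at 1 on both sides, so these counts are a description. The median of extract minus LPS was -0.16 over the 47 genes and 0.04 over all tested genes.

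In the 19 genes with extract values below LPS, the median extract minus LPS was -0.66. Their median level was 11.2 TPM for control, 51.8 for LPS and 29.1 for the extract. They include 6 of the 9 genes above 100 TPM in LPS cells, ENSRNOG00000000239 and ENSRNOG00000005695 among them. A gene just inside the window had 1.67, 2.05 and 2.06 TPM in control. It had 27.3, 25.7 and 25.8 TPM in LPS and 13.7, 13.1 and 11.3 TPM in extract libraries, about midway between the groups on a linear scale.

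In the 8 genes with extract values above LPS, the median difference was 0.31. Their median level was 6.44 TPM for control, 19.3 for LPS and 24.2 for the extract. The widest gap belonged to a gene at 6.46, 5.56 and 5.09 TPM in control. It stood at 12.7, 13.6 and 13.3 TPM in LPS and at 22.0, 23.0 and 20.9 TPM in extract libraries, so that the extract mean was 0.69 above LPS on the log2(TPM + 1) scale. The most abundant of the 8 had 55.7 ± 2.0 TPM under control, 131.2 ± 6.9 under LPS and 160.8 ± 5.2 under the extract (SD, n = 3). In both, the extract rise was larger than the LPS rise.

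The 20 genes with overlapping values had a median extract minus LPS of -0.02. A gene of this kind at a high level had TPM values of 129.9, 120.6 and 128.7 for control, 293.8, 242.6 and 264.5 for LPS and 270.8, 279.8 and 273.6 for the extract. All extract values fell within the range of the LPS values. Over the whole group, extract minus LPS was within 0.25 for 21 genes and within 0.5 for 30. In 23 of the 47 genes there was no call in either direction, with differences from -0.54 to 0.29. For these a difference was not shown to be absent. Among called genes the smallest differences were -0.15 and 0.24.

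**Figure D4:**
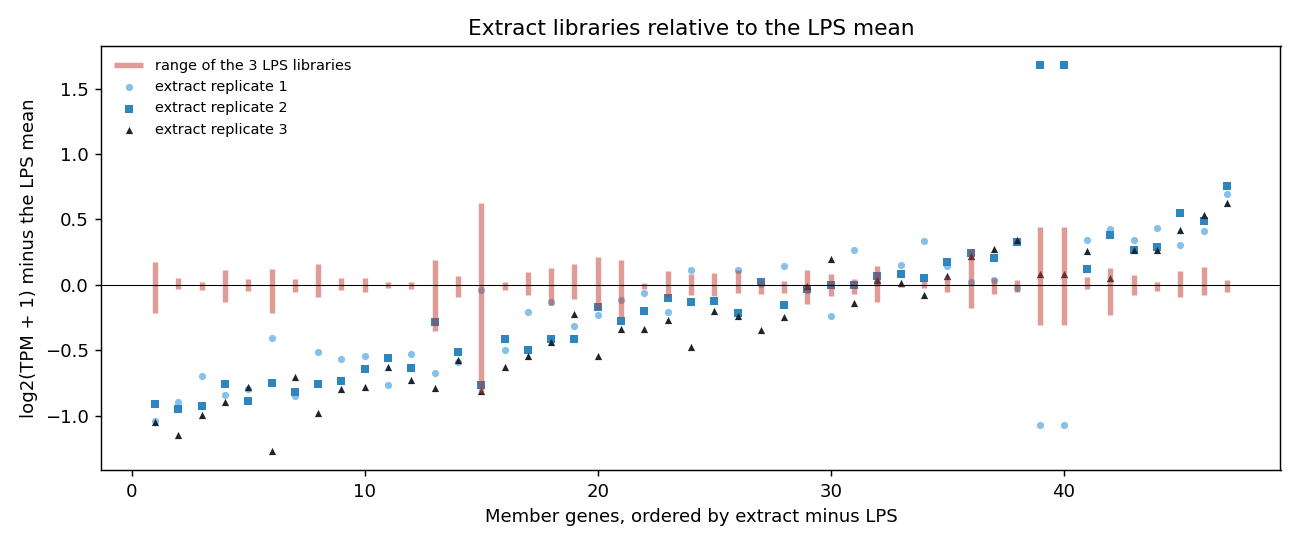
The 3 extract libraries (blue and black points) of each of the 47 genes as log2(TPM + 1) minus the LPS mean, with the range of the 3 LPS libraries as red bars. Genes are ordered by extract minus LPS, from -0.999 at left to 0.69 at right. The 2 genes with a point near 1.7 are the pair with identical values.

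The order of extract and LPS values was also counted separately for genes with a larger and a smaller LPS difference. Of the 18 genes at least 2 above control with LPS, 14 had every extract value below every LPS value, with a median extract minus LPS of -0.61. Among all tested genes at least 2 above control with LPS, 75.4% had this order. Of the 29 genes with an LPS difference of 1 to 2, 5 had it, and their median was 0.04. Among all tested genes in that range 51.9% had it. The rule used all of these values, and both quantities contain the LPS libraries, so the counts are a description and nothing is read from them.

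Extract libraries varied more than usual in these genes. The median SD of log2(TPM + 1) between the 3 extract libraries was 0.120 over the 47 genes and 0.062 over all tested genes. In the LPS group it was 0.083 and 0.077, and in control 0.087 and 0.069. For genes of at least 5 TPM in a group, the median coefficient of variation in extract cells was 8.25% over 34 of the 47 and 3.92% over tested genes. It was 4.6% against 5.01% in LPS and 4.54% against 4.50% in control cells. Among the 47 genes the wider spread was thus seen in the extract group, and the difference between groups was not tested.

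Extract replicate 3 was the lowest of the 3 in 30 of the 47 genes (63.8%), against 32.5% of tested genes. Its median deviation from the group mean was -0.09 on the log2(TPM + 1) scale over the 47 genes and 0.00 over all tested genes. Extract replicate 1 deviated by 0.05 and replicate 2 by 0.01. ENSRNOG00000000239 and ENSRNOG00000005695 both had their lowest extract value in replicate 3. Without this library the rule found 53 genes, including all 47, the median extract minus LPS of the 47 was -0.12, and 15 were called lower and 6 higher than in LPS by limma, where 22.8% and 31.1% of tested genes were. The wider spread was also seen without it: the median SD over the other 2 extract libraries was 0.105 over the 47 genes and 0.050 over all tested genes. Without replicate 1 these were 0.082 and 0.048, and without replicate 2 they were 0.156 and 0.053.

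**Figure D5:**
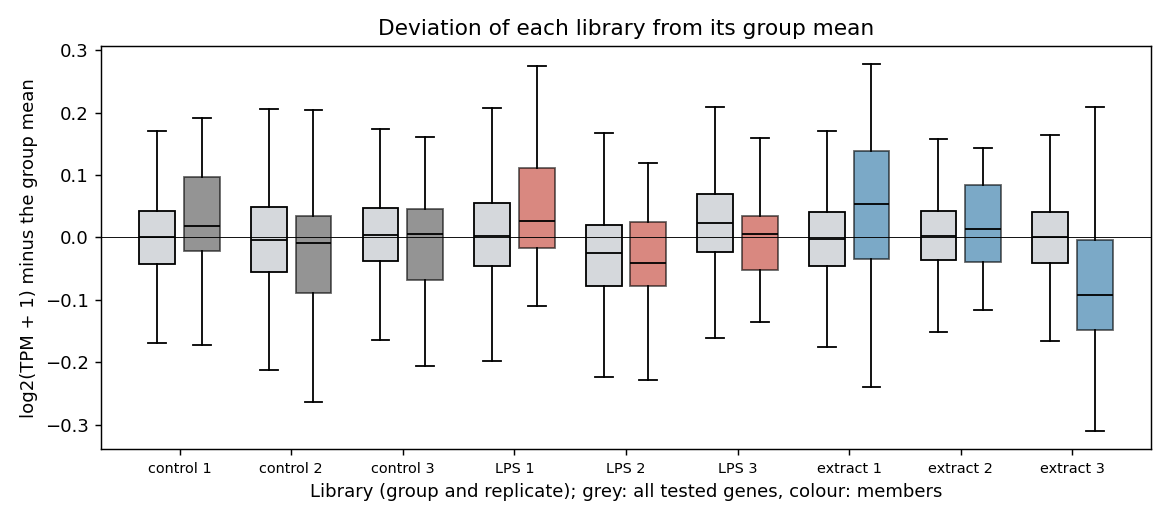
Deviation of each library from its group mean, as log2(TPM + 1), over all tested genes (grey boxes) and over the 47 genes (coloured boxes). Boxes span the quartiles around the median and whiskers reach up to 1.5 times that span. Extract replicate 3 sits lowest for the 47 genes, at a median of -0.09, and at 0.00 for all tested genes.

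The transcript table shows which transcripts carried the rise. Each gene was tied to its transcripts by their order and their sums, which matched within 0.01 TPM in every library for all 47. A single transcript above 0 TPM was listed for 21 genes (44.7%, against 40.9% of tested genes) and 2 to 6 transcripts for the other 26. In 23 of these 26 the same transcript gained the most TPM with LPS and with the extract. Only 12 of the 26 had 2 or more transcripts of at least 1 TPM, and the same held for 10 of these. In the remaining genes, little room was left for another transcript to gain the most. Among the 12 genes, 26 of 29 transcripts of at least 1 TPM had a higher mean than control in both groups. These values come from the libraries that chose the genes and are not independent of the rule.

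For ENSRNOG00000005695 a single transcript made up 99.8% of the gene with control, 99.8% with LPS and 99.9% with the extract, with an SD of at most 0.03 points. Among the 12 genes with 2 or more transcripts of at least 1 TPM, ENSRNOG00000005695 included, the share of the leading transcript differed by at most 5 percentage points between the 3 group means in 7. It differed by more in the other 5, of which 3 are given here, chosen after their values were seen. In a gene averaging 37.3 TPM under control, 320.9 under LPS and 217.5 under the extract, the leading transcript went from 60.2% ± 4.6 of the gene to 75.7% ± 0.86 and 74.8% ± 0.71 (SD, n = 3). The share was higher in both groups and nearly equal between them. In another gene, the leading transcript made up 100% under control, 90.7% ± 2.5 under LPS and 83.2% ± 2.4 under the extract. One more gene differed between the groups: its leading transcript held 40.5% ± 14.9 of the gene in LPS and 93.8% ± 5.4 in extract cells, with 81.9% ± 30.8 in control. The control spread of this share was too wide to place either group against it. In TPM, another transcript of this last gene stood at 0.04, 1.8 and 0 in control and at 12.3, 10.8 and 7.31 in LPS libraries. It was listed at 0 in every extract library. That transcript made up 89.0% of the gene's gain with LPS and -4.4% of its gain with the extract.

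The same rule in the other direction gave 46 genes lowered in both groups. Their median differences were -1.37 for LPS and -1.31 for the extract. Differences of at least 2 in size were found for 4 of them in LPS, against 18 of the 47 raised genes. On the log2(TPM + 1) scale a fall cannot be larger than the control level, while a rise has no such limit. The highest control level among the lowered genes was 476.9 TPM, well below the 7157 TPM of ENSRNOG00000005695. Extract replicate 3 was the lowest extract library in 23.9% of the lowered genes. No test was made between the raised and lowered genes, as the rule chose both.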

How the data were processed

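RNA from 9 HBZY-1 libraries was compared, 3 in each of 3 groups set by the group label. Gene and transcript levels were deposited by the authors as TPM, rounded to 2 decimals, with a total of 1000000 per library. Per the submitters' processing notes the tools included RSEM 1.3.3, HISAT2 2.1.0 and fastp. The genome build, the annotation and the strandedness were not given in the sources used here. TPM keeps no read depth, so no counting interval is given, and precision rests on the 3 libraries of a group.

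The 47 genes and the gene lists were chosen with earlier results of these data known. The rule was applied to log2(TPM + 1) of genes averaging 1 TPM or more. For the counts of calls, the 12192 tested genes of all 9 libraries were fitted with group means in limma 3.58.1 in R 4.3.3 (mean-variance trend, two-sided, Benjamini-Hochberg adjusted p below 0.05), a fit also tested on simulated data. Transcripts were tied to genes where consecutive transcript values summed to the gene's TPM. Summaries were made in Python 3.11.15 with pandas 2.3.3.

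The reference table of 47357 rat genes (GRCr8) lists no Ensembl identifiers, so none of the 30560 in the file could be matched to it. The planned gene lists, markers, promoters and named genes were therefore not analysed here. In that case at most 2 identifiers were to be printed, the first by rise and the first by level; other genes are described by their values, an illustration chosen after these were seen. The alternatives were a pseudocount of 0.1 or 5, a filter of 5 TPM or none, median-of-ratios scaling, a replicate block, quantile normalization, a fit of 2 groups, no trend, and each library left out in turn.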

Additional observations from a re-analysis of the deposited data

How the results depend on the processing

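The rule found between 43 and 53 genes with 1 library left out and 47 under both rescalings (45 of them shared with the 47), 55 with a pseudocount of 0.1, 33 with a filter of 5 TPM and 48 with none. It found 30 with a pseudocount of 5, which lowers the differences of genes with few TPM. For the same reason the median difference of the 47 genes from control moved from 1.72 to 2.511 and 1.169 in LPS cells, and from 1.57 to 2.107 and 1.129 in extract cells, with pseudocounts of 0.1 and 5. Median-of-ratios scaling gave 1.802 in LPS cells, and leaving out 1 library gave 1.709 to 1.801. The median of extract minus LPS stayed negative in the 13 alternatives run for it. Counts of genes called, or not overlapping, in extract versus LPS kept within 1.5 times their value in every alternative run for them; the alternatives for the second kind were chosen after the values were seen. The shares of tested genes called moved with the scaling. With median-of-ratios scaling, 20 of the 47 were called lower and 5 higher, where 29.0% and 30.3% of tested genes were called. Higher in LPS versus control were 2117 of the 12192 tested genes with this scaling and 1193 without it. With the replicate block, 18 genes were called lower and 6 higher, as without it, where 24.4% and 33.6% of tested genes were called. The numbers were not taken to pair the libraries. Across genes, deviations correlated at -0.055 to 0.095 for same-numbered libraries and at -0.11 to 0.089 for different-numbered ones. Between LPS and extract, same-numbered libraries gave 0.023, 0.078 and 0.095, and different-numbered ones -0.086 to 0.005. Whether the numbers pair these libraries was thus not settled. Without read depth, whether the genes near 0 TPM in control were silent or undersampled was not examined.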

Other observations

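The lower values in extract replicate 3 were also seen in other genes raised by LPS. The 22 genes that were raised in both groups but had extract and LPS means at least 1 apart had their lowest extract value in this library in 13 cases (59.1%). A further 92 genes were at least 1 above control with LPS, with no overlap, and did not meet the criteria for the extract group. In these it was the lowest in 52 (56.5%), with a median deviation of -0.07 on the log2(TPM + 1) scale. In 90 genes that met the criteria for the extract group and not for LPS, it was the lowest in 34 (37.8%) and the highest in 38 (42.2%). Over all 12192 tested genes it was the lowest in 32.5%. The median SD between extract libraries was 0.128 in the 22 genes, 0.127 in the 92 and 0.082 in the 90, against 0.062 in all tested genes. Between LPS libraries it was 0.103, 0.139 and 0.111, against 0.077. A wider spread in these lists was thus not limited to the extract group. The lists were chosen from these libraries and no test was made between them.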
